A study of Mus musculus with 12 samples.

Results

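The genes described here are 30 genes of amino acid supply, one-carbon metabolism and the ATF4 stress response, a set made by naming the genes. No cutoff on a measured value was used, but the genes were chosen with earlier results of these data known. Of these, 28 were measured by a probe set with exactly 1 gene symbol, out of 22180 such genes on the array, and all 28 were among the 9862 genes bright enough to be tested. They comprise 7 genes of the stress response, 8 enzymes of serine synthesis and folate metabolism, 1 enzyme of proline synthesis (Aldh18a1) and 12 cytosolic tRNA synthetases. Mars was found under its newer symbol Mars1. Aars shared its probe set with another gene, and Pycr1 matched no probe set in the annotation used here, so neither has a value.

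Each value is the deposited log2 level of 1 probe set on 1 of 12 mouse arrays, 3 in each of 4 groups. Naive CD8 T cells came from spleens of wild-type (WT) mice and of Cd4cre+ STAT3fl/fl mice (STAT3-/-), whose T cells delete STAT3 through a Cre recombinase driven by Cd4. Both genotypes were pooled at a ratio of 1:1 and activated together for 4 days in all (anti-CD3, 1 µg/ml; anti-CD28, 3 µg/ml). The first 3 days included IL-12, which gives Tc1 cells, or IL-6 with TGFb, which gives Tc17 cells, and the last day included IL-2. WT and STAT3-/- cells were separated afterwards by sorting on allelic markers. All 4 groups therefore shared activation and IL-2, and WT and STAT3-/- cells of 1 condition shared a culture. Per group there were biological replicates 1 and 2 and a technical replicate numbered 2. Biological replicate 2 was averaged with this array of the same number, leaving 2 samples per group. As the labels tie no replicate to an animal or a culture, the p-values speak only of the spread seen among these samples, part of which may be technical.

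Amino acid shortage and other stresses activate kinases that phosphorylate the translation factor eIF2. General translation then falls while the transcription factor ATF4 is made, and ATF4 raises genes for amino acid synthesis, transport and tRNA charging. The serine pathway runs from glycolysis to serine through Phgdh, Psat1 and Psph, and serine then feeds one-carbon units to folate through Shmt1 and Shmt2 for nucleotide synthesis. Activated T cells are known to need this pathway to proliferate, and in T cells mTORC1 and MYC also drive many of the same genes.

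Of the 4 groups, Tc17 WT had the lowest mean in 7 of 8 serine and folate enzymes, and also in most of the tRNA synthetases. The share of all tested genes with their lowest mean in Tc17 WT was not counted. Their median difference between Tc17 and Tc1 in WT was -0.10. Sesn2, Psat1, Phgdh, Aldh18a1 and Yars were higher in STAT3-/- than in WT Tc17 cells, and no member was called between the genotypes in Tc1 cells. These 5 are 17.9% of the measured members, beside 18.2% of all tested genes. Among WT cells, 8 members (28.6%, beside 18.0% of tested genes) were lower in Tc17 than in Tc1. Atf4 itself passed the test in none of the comparisons.

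The labels and the arrays were checked on genes outside the set. Stat3 lay between 9.77 and 10.72 on the 6 WT arrays and between 6.99 and 7.93 on the 6 STAT3-/- arrays. Over the 9 measured genes of CD8 T cell identity the mean log2 level was 9.86 to 10.05 on every array. Il17a averaged 8.33 in WT and 4.56 in STAT3-/- Tc17 cells. Among markers of other cells, B cell genes moved with genotype in Tc17 cells: over the 7 measured, the mean level lay between 4.85 and 4.94 with STAT3 and between 5.14 and 5.19 without it. This came from Ighm (9.09 and 10.86) and Cd79b (6.78 and 7.56). The defining genes Ms4a1, Cd79a, Pax5, Cd22 and Blk stayed at 4.13 or below in every group mean. The myeloid gene Cd68 had means of 7.92 and 6.80, and Cst3, the other myeloid gene tested, had means of 7.70 and 7.90. The other 6 of 8 myeloid genes were below the brightness filter in all groups. Of 4 CD4 T cell genes, Foxp3 had Tc17 means of 7.25 and 8.25, against 5.23 and 5.09 in Tc1. The others had Tc17 means of 5.34 and 5.10 (Cd4), 6.13 and 6.20 (Zbtb7b) and 3.21 and 2.73 (Cd40lg). Of 6 NK and innate-like T cell genes, Cd160 had Tc17 means of 5.16 and 5.64 and Sox13 of 5.29 and 5.17. The rest of these genes were below the brightness filter. Genes of the Tc1 program also moved with genotype in Tc17. Over 8, the mean level lay between 6.92 and 7.11 in WT and between 7.77 and 7.86 in STAT3-/- cells. Of the 8, 6 were higher in STAT3-/- cells, Ifng among them (4.72 and 7.07). The 2 that were lower were Prf1 (8.72 and 8.10) and Il12rb2 (10.32 and 10.16). The part of these markers in the results on the members was not tested.

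The technical array of Tc17 WT stood apart: over tested genes its correlation with the remaining arrays had a median of 0.933, against 0.961 or more for each of those 11. On it, 25 of 28 members lay below both biological arrays of the group, beside 6231 of all 9862 genes tested. The median difference of the members from the mean of those arrays was -0.32, against -0.16 for all genes tested. Psat1, for example, was 8.19 and 8.18 on the biological arrays and 7.40 on the technical one, and Shmt2 was 11.14 and 11.08 against 10.29. Phgdh was an exception, with 7.54 and 8.22 on the biological arrays and 8.16 on the technical one. On the Tc1 technical arrays Ddit3 was low instead, at 6.04 in WT and 6.08 in STAT3-/- against 7.11 to 7.35 on the 4 biological arrays. The labels do not say which sample a technical array repeats. Its average with biological replicate 2 is an assumption, and the differences between arrays did not settle it: their SD over tested genes was 0.144 to 0.192 between the biological arrays and 0.195 to 0.372 between a technical array and either of them.

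**Figure D1:**
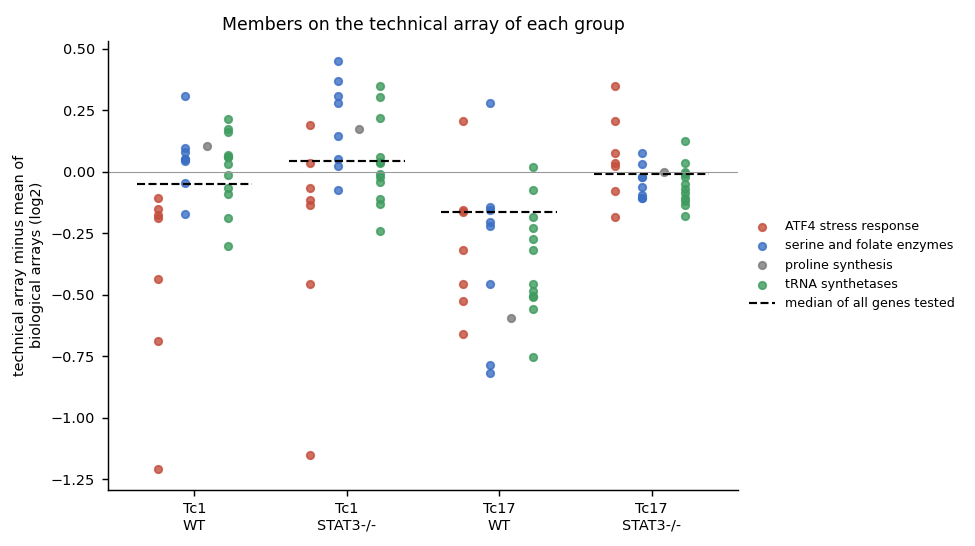
Each point is 1 member's log2 value on the technical array minus the mean of the biological arrays of its group (vertical axis, log2), for the 4 groups (horizontal axis), coloured by role; dashed lines are the median over all genes tested. Members of Tc17 WT sit mostly below 0 and below the dashed line at -0.16, and Ddit3 gives the lowest points in both Tc1 groups.

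Ordered by role, the stress response comes first. Its members are the transcription factors Atf4, Ddit3 (CHOP) and Cebpb, the pseudokinase Trib3, which dampens the response, the glutathione-degrading enzyme Chac1, asparagine synthetase (Asns) and the stress-induced leucine sensor Sesn2, which restrains mTORC1. The folate and serine enzymes are Phgdh, Psat1 and Psph, which make serine, Shmt1 and Shmt2, which split it, in the cytosol and mitochondria respectively, and Mthfd1, Mthfd1l and Mthfd2, which interconvert folate-bound one-carbon units. Aldh18a1 makes the precursor of proline. The tRNA synthetases load amino acids onto tRNA. Promoter letters are shown first, for the 3 members that both hold the C/EBP-ATF composite element, the letters ATF4 dimers are known to bind, and passed a test in at least 1 comparison. The element was searched on both strands as TGATGNAA, in RefSeq windows (GRCm38.p6) of 250 bases before to 50 after each start site, and its match is in capitals. Letters are on the gene's strand, with up to 30 bases on each side of the match, and do not run past the start site except to finish a match that lies beyond it.
Chac1 (chr2:119351019-119351086, + strand): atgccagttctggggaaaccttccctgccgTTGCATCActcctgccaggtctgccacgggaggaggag
Asns (chr6:7693210-7693262, - strand): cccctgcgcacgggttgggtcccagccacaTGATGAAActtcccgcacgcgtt
Yars (chr4:129189876-129189913, + strand): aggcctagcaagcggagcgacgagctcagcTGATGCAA
Counted from the start site, the match spans bases -193 to -186 in Chac1, where it reads on the opposite strand, -23 to -16 in Asns and 4 to 11 in Yars. Of 25 listed genes with a window, 9 held a match (36%), against 4.51% of all 27025 genes with one. The measured ones were Trib3, Chac1, Asns, Gars, Iars, Tars and Yars. Because the list was named partly for the ATF4 response, a share above that of all genes could come from how it was made. The STAT-type letters TTCNNNGAA, searched likewise, occurred in 3 of the 25 (12%), against 9.55% of all genes, and in no measured member that also held the element. A match here is a string of letters and not a binding site.

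Between the genotypes in Tc17 cells, 5 of 28 members were called higher in STAT3-/- cells and 0 lower, at an adjusted p under 0.05. That is 17.9%, beside 18.2% of all tested genes called higher and 6.83% called lower, so the share of members called was near the background. The members' median difference was 0.13 on the log2 scale, and that of all tested genes was 0.11. Subtracting each array's median over tested genes gave 0.01 and -0.01, and moved the calls over all genes from 1799 higher and 674 lower to 1080 and 1125. In cell populations, more cells expressing a gene and more RNA per cell cannot be told apart. The called members were 1 stress gene, 2 serine enzymes, the proline enzyme and 1 synthetase.

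Sesn2 read 7.49, 7.40 and 7.29 on the Tc17 WT arrays (biological 1, biological 2, technical). In Tc17 STAT3-/- it read 7.91, 7.79 and 8.20, in Tc1 WT 7.54, 7.41 and 7.30, and in Tc1 STAT3-/- 7.45, 7.30 and 7.41. All 3 STAT3-/- Tc17 arrays lay above all 9 others. The difference was 0.53 ± 0.10 (SE, 2 samples against 2), 1.45-fold, with an adjusted p of 0.0067. With the technical arrays left out it was 0.40.

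Psat1, the middle enzyme of serine synthesis, read 8.19, 8.18 and 7.40 in Tc17 WT and 8.59, 8.58 and 8.48 in Tc17 STAT3-/-. It read 8.68, 8.63 and 8.61 in Tc1 WT and 8.67, 8.60 and 8.78 in Tc1 STAT3-/-. Every Tc17 WT array lay below every other array. The difference between the genotypes in Tc17 was 0.57 ± 0.13 (adjusted p = 0.0118), 1.49-fold, and fell to 0.37 without the Tc17 WT technical array, still past the threshold.

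Phgdh, the first enzyme of the pathway, read 7.54, 8.22 and 8.16 in Tc17 WT and 8.52, 8.64 and 8.61 in Tc17 STAT3-/-. The 2 genotypes did not overlap, but 1 array, Tc17 WT biological 1, was far below the rest. The Tc1 arrays read 8.40, 8.54 and 8.52 in WT and 8.21, 8.39 and 8.75 in STAT3-/-. The Tc17 genotype difference was 0.71 ± 0.20 (adjusted p = 0.0309), 1.63-fold. Without Tc17 WT replicate 1 it was 0.39 (adjusted p = 0.0971) and without replicate 2 it was 1.03.

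Yars, which charges tyrosine tRNA, read 8.88, 8.84 and 8.30 in Tc17 WT and 9.21, 9.20 and 9.24 in Tc17 STAT3-/-. The Tc1 arrays lay at 9.14, 9.14 and 9.17 in WT and at 9.29, 9.17 and 9.22 in STAT3-/-. Again Tc17 WT alone was low, with no overlap with any other group. The genotype difference in Tc17 was 0.49 ± 0.11 (adjusted p = 0.0132), 1.40-fold, and 0.36 without the Tc17 WT technical array. Aldh18a1 read 9.22, 9.41 and 8.72 in Tc17 WT and 9.42, 9.52 and 9.47 in Tc17 STAT3-/-. Its groups nearly met on the biological arrays, and the difference of 0.31 ± 0.10 (adjusted p = 0.043) became 0.14 without the Tc17 WT technical array and was then not called. Leaving out either Tc17 STAT3-/- sample left Psat1, Yars and Phgdh uncalled, with adjusted p values for Psat1 of 0.0804 and 0.0617. For Sesn2, this was so only without replicate 2 (0.0639).

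The other stress genes did not pass the test between the genotypes in Tc17. Atf4 read 8.63, 8.65 and 7.98 in WT and 8.48, 8.57 and 8.34 in STAT3-/-, a difference of -0.01 with a 95% confidence interval from -0.26 to 0.25. The technical array of WT was the lowest, and both biological STAT3-/- arrays lay below both biological WT arrays. Ddit3 read 7.06, 7.37 and 6.76 in WT and 6.71, 6.66 and 6.89 in STAT3-/-, a difference of -0.32 ± 0.26 (adjusted p = 0.385). On the biological arrays alone, where the 2 genotypes did not overlap, Ddit3 was called lower in STAT3-/- cells (-0.53, adjusted p = 0.0113). The differences of Trib3, Chac1, Asns and Cebpb were 0.04, 0.26, 0.18 and 0.04. Of these, Chac1 alone had 3 STAT3-/- arrays (5.99, 5.82 and 5.93) above all 3 WT arrays (5.81, 5.65 and 5.41).

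Of the 8 serine and folate enzymes, 7 had a difference above 0 in Tc17. The share of all tested genes above 0 was not counted, but their median was also above 0, at 0.11. The median of the 8 enzymes was 0.26. Without the Tc17 WT technical array that median was 0.16, and it stayed above 0 under every scaling tried. Shmt2 read 11.14, 11.08 and 10.29 in Tc17 WT and 11.22, 11.24 and 11.21 in STAT3-/-, a difference of 0.31 ± 0.14 (adjusted p = 0.128). Shmt1 and Mthfd1 each differed by 0.26 (adjusted p = 0.0625 and 0.0898), with all STAT3-/- arrays above all WT arrays. How many of all tested genes had arrays without overlap was not counted. Mthfd2 and Mthfd1l differed by 0.14 and 0.08, and Psph by -0.04, with overlapping arrays for all 3.

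**Figure D2:**
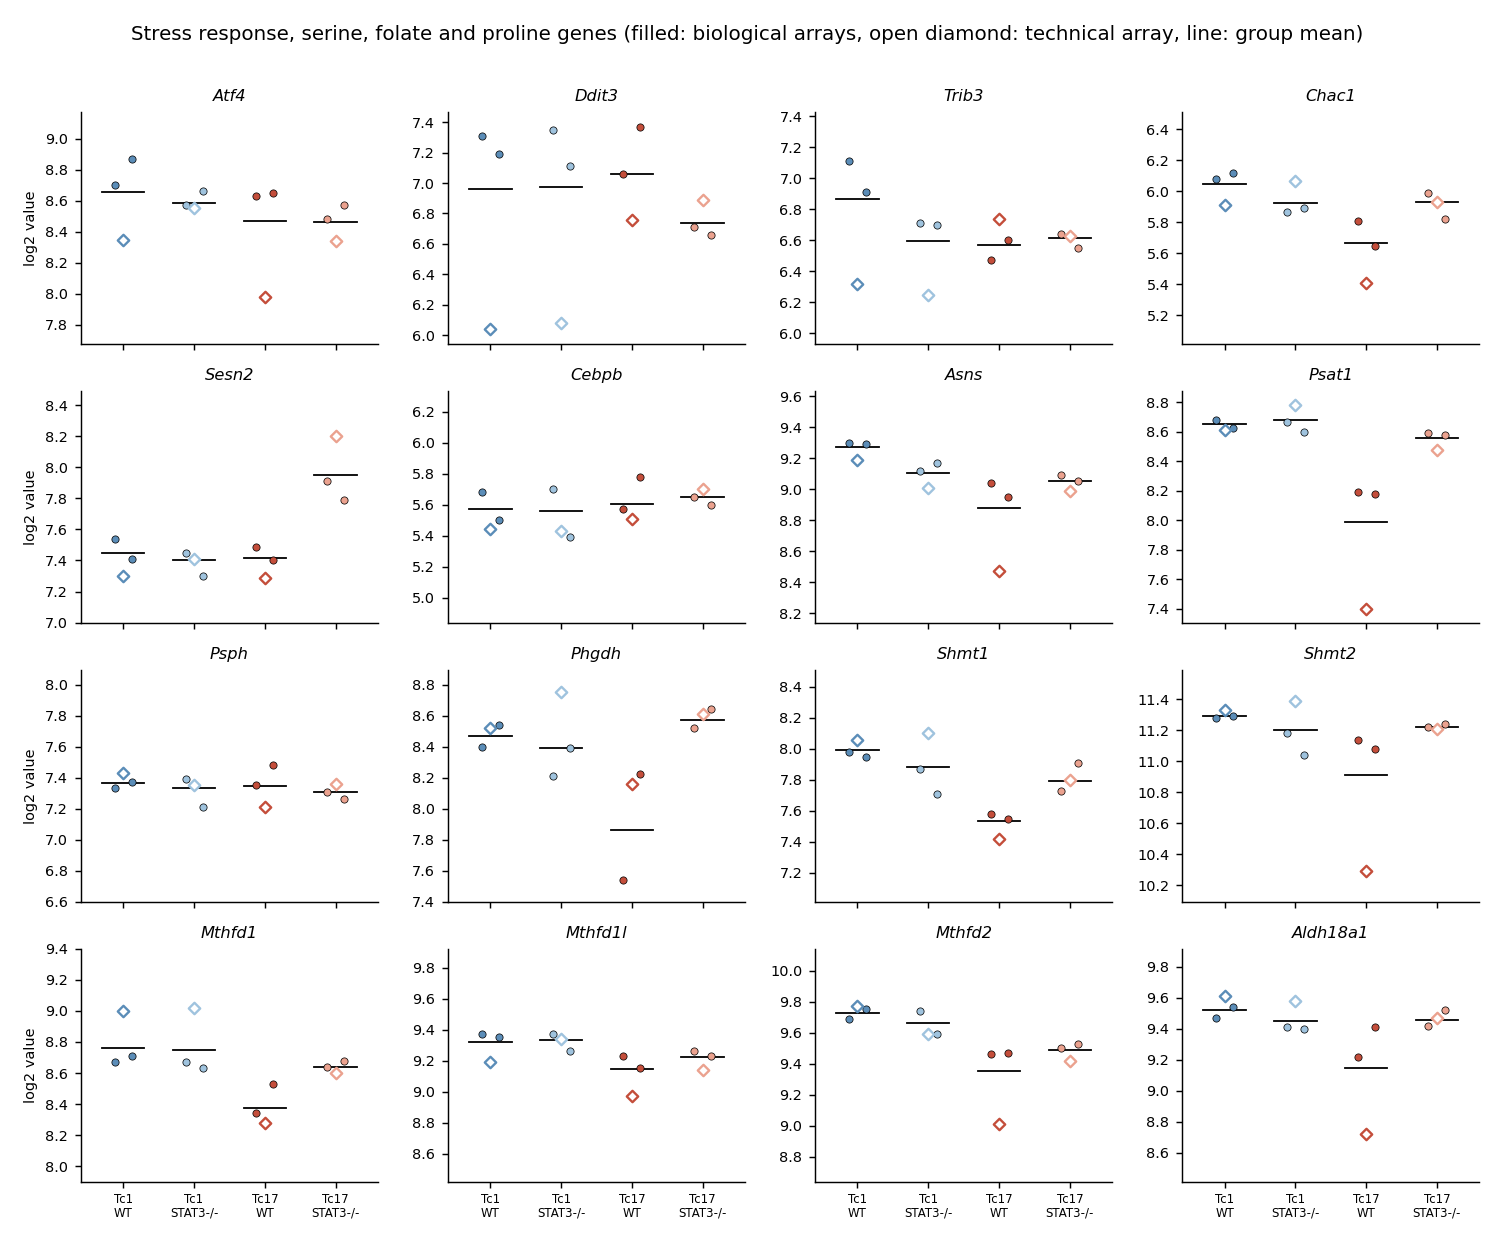
Log2 values (vertical axis) of the 16 measured stress, serine, folate and proline genes in the 4 groups (horizontal axis); filled points are biological arrays, open diamonds the technical array and lines the mean of the 2 samples of a group. Sesn2 is high in Tc17 STAT3-/- alone, Psat1 is low on all 3 Tc17 WT arrays, and the technical diamond is the lowest point of Tc17 WT for Shmt2, Mthfd2 and Aldh18a1.

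Among the 12 tRNA synthetases, Yars was the 1 called, and the median difference between the genotypes in Tc17 was 0.09. It was 0.00 without the Tc17 WT technical array, and turned to -0.03 when the median of tested genes was subtracted from each array and to -0.04 under cyclic loess. Mars (methionine), Wars (tryptophan) and Sars (serine) had the next largest differences, 0.27, 0.22 and 0.20, none past the test. For Wars, the arrays read 9.07, 9.0 and 8.28 in Tc17 WT and 9.07, 9.09 and 9.07 in STAT3-/-, so that only the technical array was low. Cars, Lars, Eprs, Nars, Iars and Gars, for cysteine, leucine, glutamate and proline, asparagine, isoleucine and glycine, lay between 0.03 and 0.13. Hars and Tars, for histidine and threonine, differed by -0.04 each.

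**Figure D3:**
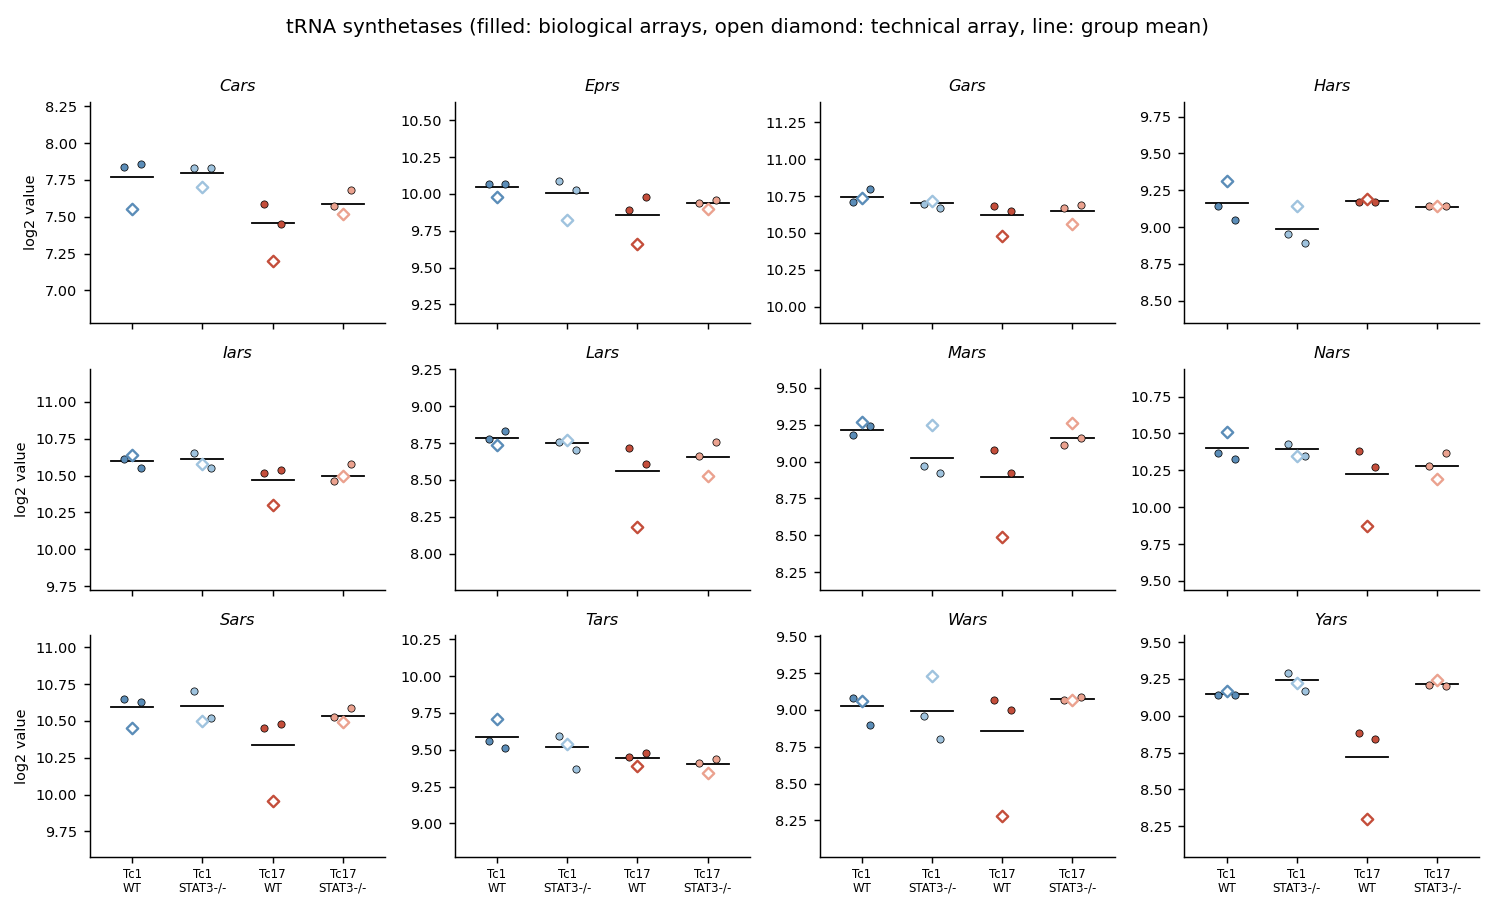
Log2 values (vertical axis) of the 12 measured tRNA synthetases in the 4 groups (horizontal axis); filled points are biological arrays, open diamonds the technical array and lines the mean of the 2 samples of a group. Yars is lower on all 3 Tc17 WT arrays than on any other array, whereas for Wars, Nars and Lars the technical array of Tc17 WT is the low one.

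In Tc1 cells, 0 of 28 members were called between the genotypes, beside 0.0203% of tested genes called higher and 0.0406% called lower. At an unadjusted p under 0.05, 370 of the 9862 genes passed. Member differences ran from -0.27 (Trib3) to 0.09 (Yars), with a median of -0.04, against 0.01 for all genes. Psat1 and Sesn2 differed by 0.03 and -0.05. Yars was the member whose 3 STAT3-/- arrays all lay above the 3 WT arrays in Tc1. Asns was the one whose 3 lay below, at 9.12, 9.17 and 9.01 against 9.30, 9.29 and 9.19. Over all tested genes, the share with arrays that did not overlap was not counted, here or in the other comparisons. With 2 samples per group the 95% confidence interval of Psat1 in Tc1 ran from -0.25 to 0.31, so a difference of that gene within this range was not excluded.

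The genotype effect in Tc17 minus that in Tc1 was tested directly. Sesn2 was the 1 member called, at 0.58 ± 0.15 (adjusted p = 0.0487), beside 4.48% of tested genes called higher and 2.37% called lower. The values were above 0 for 26 of 28 members, and the share of all tested genes above 0 was not counted. The members' median was 0.19 against 0.12 over all tested genes, and 0.13 against 0.11 without the technical arrays. Phgdh (0.78 ± 0.28, adjusted p = 0.129) and Psat1 (0.54 ± 0.18, adjusted p = 0.105) did not pass, although the value of Phgdh was larger than that of Sesn2. Under some alternatives serine enzymes were called: Phgdh in 3 of 23 (lowest adjusted p = 0.0254), Psat1 in 2 (0.0107) and Shmt2 in 1 (0.0151). The Sesn2 call was lost when any 1 sample other than Tc17 WT replicate 1 was left out (0.49 to 0.67, adjusted p from 0.0682 to 0.192), and after subtraction of the tested-gene median (0.47, adjusted p = 0.0558).

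Tc17 and Tc1 cells were then compared within each genotype. These comparisons share the Tc17 samples with those above, so agreement between them is not separate evidence. In WT, 8 of 28 members were lower in Tc17 than in Tc1 and 0 were higher. That is 28.6%, beside 18.0% of all tested genes called lower and 7.01% called higher. The members' median was -0.24 and that of all tested genes -0.10. Leaving out the technical arrays gave -0.17 for the members and -0.08 for all genes, with 8 members called lower. Of these, Psat1, Shmt1, Chac1, Asns and Yars were called in both fits, whereas Phgdh (-0.59, adjusted p = 0.0406), Trib3 (-0.47, adjusted p = 0.0067) and Cars (-0.33, adjusted p = 0.0199) took the place of Aldh18a1, Mthfd1 and Mthfd2. Leaving out the Tc17 WT technical array alone gave -0.13 and -0.06, with 6. Subtracting each array's median over tested genes gave -0.13 for the members and 0.02 for all genes, with 3 members called lower, and moved the calls over all genes from 691 higher and 1777 lower to 1156 and 1110.

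The serine and folate enzymes held 4 of the 8. Psat1 fell by 0.66 ± 0.13 (adjusted p = 0.0061), the single member called under all 23 alternatives, with a range of -0.86 to -0.46. Shmt1 read 7.98, 7.95 and 8.06 in Tc1 WT and 7.58, 7.55 and 7.42 in Tc17 WT, without overlap, and fell by 0.46 ± 0.09 (adjusted p = 0.007). It was lost under 1 alternative, without Tc1 WT replicate 2 (adjusted p = 0.0502). Mthfd1 read 8.67, 8.71 and 9.0 against 8.34, 8.53 and 8.28, and Mthfd2 9.69, 9.75 and 9.77 against 9.46, 9.47 and 9.01. Both fell without overlap, Mthfd1 by 0.38 (adjusted p = 0.0246) and Mthfd2 by 0.37 (adjusted p = 0.0312). Without the technical arrays their adjusted p values were 0.0671 and 0.0522. Phgdh and Shmt2 had differences of -0.60 (adjusted p = 0.0549) and -0.38 (adjusted p = 0.072) with no overlapping arrays, and Psph of -0.02. The share of all tested genes without overlap in this comparison was not counted.

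Outside that pathway, Aldh18a1 read 9.47, 9.54 and 9.61 in Tc1 WT and fell by 0.38 (adjusted p = 0.0216) in Tc17 WT. That call was lost without the technical arrays, where the difference was -0.19 (adjusted p = 0.169). Chac1 read 6.08, 6.12 and 5.91 in Tc1 WT against 5.81, 5.65 and 5.41, and Asns 9.30, 9.29 and 9.19 against 9.04, 8.95 and 8.47. Neither gene overlapped between the groups. Chac1 fell by 0.38 (adjusted p = 0.0368) and Asns by 0.39 (adjusted p = 0.0373), and both passed without the technical arrays too. Yars fell by 0.42 ± 0.11 (adjusted p = 0.0241). The other 11 synthetases did not pass, with values from -0.32 (Mars) to 0.02 (Hars). Atf4 differed by -0.18 (adjusted p = 0.255), Sesn2 by -0.03 and Ddit3 by 0.10.

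Beside the promoter letters, the 7 measured members with the C/EBP-ATF element had a median of -0.29 between Tc17 and Tc1 in WT, with 3 called lower. The 16 measured members with a window and no match also had a median of -0.29, with 5 called lower. Between the genotypes in Tc17 the medians were 0.04 with a match and 0.23 without, and 1 and 4 members were called higher.

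**Figure D4:**
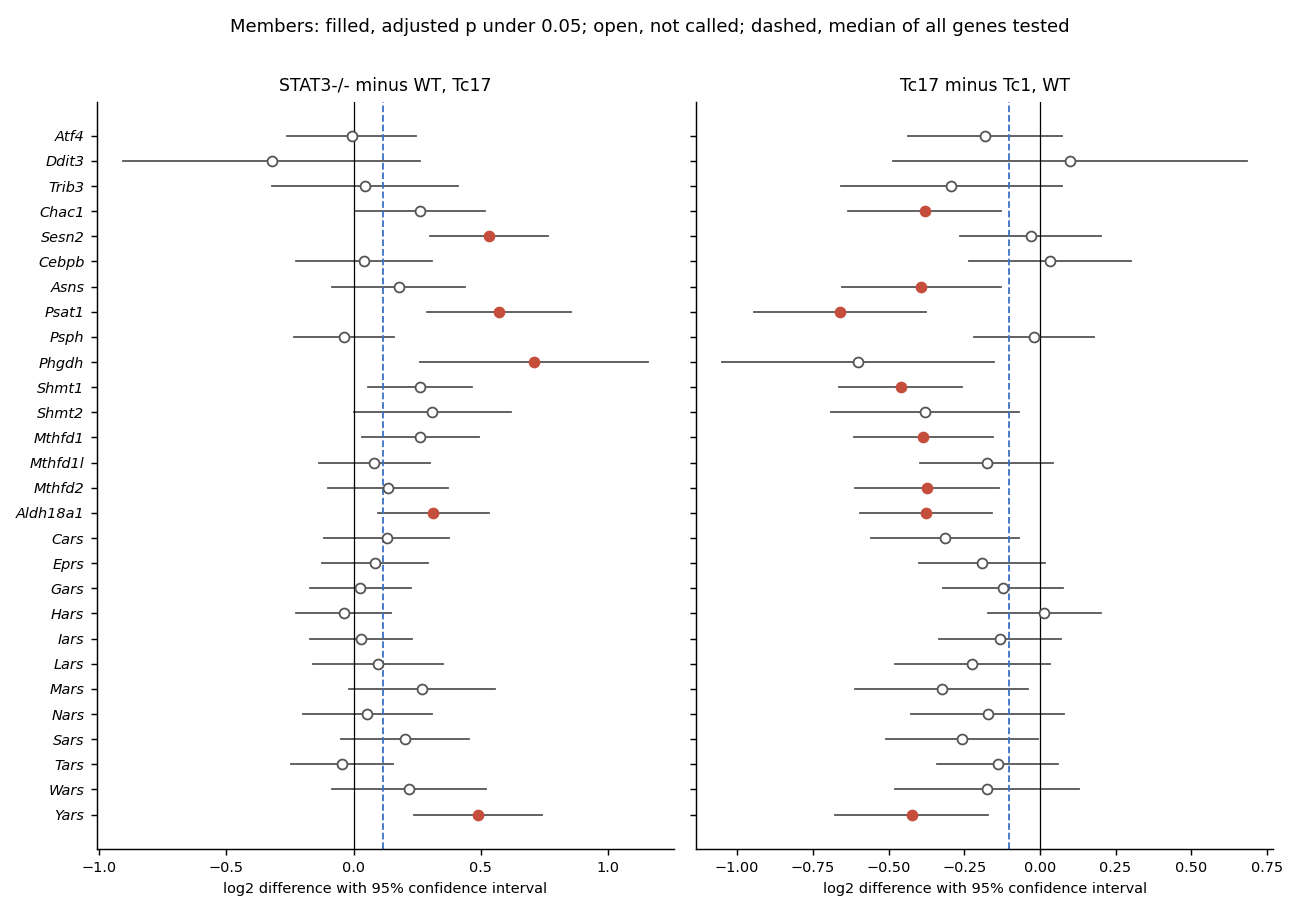
Log2 difference of each measured member (points, horizontal axis) with its 95% confidence interval, STAT3-/- minus WT in Tc17 at left and Tc17 minus Tc1 in WT at right; filled points have an adjusted p under 0.05 and the dashed line is the median of all genes tested (0.11 and -0.10). At left 5 members are filled, all above the line, and at right 8 are filled, all below it; the panels share the Tc17 WT samples.

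In STAT3-/- cells, 1 of 28 members differed between Tc17 and Tc1. Sesn2 was 0.55 ± 0.10 higher in Tc17 (adjusted p = 0.0294), beside 1.05% of tested genes called higher and 1.01% called lower. The call was lost when any 1 sample of the 2 groups was left out, with adjusted p values from 0.118 to 0.31. The serine and folate enzymes had a median of -0.10, Psat1 differed by -0.12 and Phgdh by 0.18, and the members together had a median of -0.06 against 0.00 for all genes. With the technical arrays left out Ddit3 was called lower in Tc17 (-0.61, adjusted p = 0.0381).

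Other genes of these pathways were read from 11 lists made with earlier results of these data known. The background for their counts is that of all tested genes: 18.2% called higher and 6.83% called lower between the genotypes in Tc17, and 7.01% and 18.0% between Tc17 and Tc1 in WT. In the first comparison the share called higher was below the background in 7 of the lists, and no list was tested as a whole. Amino acid transporters had 4 of 12 tested genes called higher and 0 lower. The glutamine and alanine carrier Slc38a2 read 8.83, 8.81 and 8.37 in WT and 9.25, 9.34 and 9.39 in STAT3-/-, and rose by 0.60 ± 0.11 (adjusted p = 0.0045). Slc43a1, a carrier of large neutral amino acids, rose by 0.50 (adjusted p = 0.0044), and its genotype effect was larger in Tc17 than in Tc1 by 0.59 (adjusted p = 0.0254). That difference of effects was called in 10 of 23 alternatives and was 0.47 (adjusted p = 0.056) without the technical arrays. Leaving out any 1 sample other than those of Tc17 WT also lost it. Slc7a6, an exchanger of cationic and neutral amino acids, rose by 0.40. In Slc38a2, Slc43a1 and Slc7a6 the WT and STAT3-/- Tc17 arrays did not overlap. The Slc7a6 call between the genotypes in Tc17 was kept in 15 of 23 alternatives. Of 14 other folate, methionine and glycine enzymes 3 were called higher. Mtrr and Mtr, which regenerate methionine, rose by 0.66 and 0.47, and without the technical arrays Mtr differed by 0.36 (adjusted p = 0.0641). For Ahcy, which breaks down S-adenosylhomocysteine, the probe set used rose by 0.53, but its probe sets disagreed and their mean gave 0.03 (adjusted p = 0.859). Its genotype effect was larger in Tc17 than in Tc1 by 0.66 (adjusted p = 0.0179), and by 0.15 (adjusted p = 0.579) from the mean of the probe sets. Between Tc17 and Tc1 in WT, Mtrr, Ahcy and Mtr were called lower, with differences of -0.56, -0.51 and -0.40. These calls were kept in 17, 22 and 16 of 23 alternatives. The smallest difference of Ahcy among them was -0.15, and without the technical arrays Mtr differed by -0.27 (adjusted p = 0.1568).

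The mitochondrial tRNA synthetases had 5 of 14 called higher, with Fars2 (0.71 ± 0.11, adjusted p = 0.0026), Pars2 (0.44) and Hars2 (0.43) as the largest. With the technical arrays left out 1 of 14 was called higher and 1 lower: Fars2 then differed by 0.45 (adjusted p = 0.0306), Pars2 by 0.41 (adjusted p = 0.0734) and Hars2 by 0.35 (adjusted p = 0.0607). Of 8 other cytosolic synthetases and complex proteins, Vars (0.27) was called higher, in 10 of 23 alternatives, and the call was lost when any 1 of the 8 samples was left out. Of 14 eIF2 kinases, phosphatase subunits and eIF2 or eIF2B subunits, Eif2s2 (0.49) and Ppp1r15b (0.38) were called higher, and none of the eIF2 kinases was called. Between Tc17 and Tc1 in WT, 3 of these 14 were called lower, Eif2s2 (-0.55), Ppp1r15b (-0.40) and the eIF2 kinase PERK, Eif2ak3 (-0.40, adjusted p = 0.0352, called in 12 of 23 alternatives). Purine synthesis had 1 of 10 called higher between the genotypes in Tc17, its first enzyme Ppat (0.52). Of 13 other proline, glutamine and amino acid enzymes, Pycrl (0.43, adjusted p = 0.0261) and Glul (0.35) were called higher, each in 14 of 23 alternatives. Pycrl read 6.63, 6.65 and 5.95 in Tc17 WT, and without the technical arrays its difference was 0.20 (adjusted p = 0.212). The mean of the probe sets of Glul gave 0.11 (adjusted p = 0.436). Ppat (-0.43), Pycrl (-0.40), Glul (-0.39), Vars (-0.28) and Fars2 (-0.35) were called lower in Tc17 than in Tc1 in WT. Without the technical arrays Pycrl and Fars2 differed there by -0.19 (adjusted p = 0.226) and -0.12 (adjusted p = 0.529). The calls of Pycrl, Fars2 and Vars in that comparison were kept in 8, 6 and 10 of 23 alternatives.

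Other ATF4 targets and partners went both ways, with 4 of 15 called higher and 1 lower. Atf3, a stress-induced repressor, read 7.01, 7.13 and 6.42 in Tc17 WT and 6.02, 5.84 and 6.02 in Tc17 STAT3-/-, and its Tc1 arrays lay between 5.82 and 6.02. All 3 Tc17 WT arrays were above the other 9. Atf3 fell by 0.91 ± 0.10 in STAT3-/- Tc17 cells (adjusted p = 4.25e-04), and the genotype effect differed from that in Tc1 by -0.86 (adjusted p = 0.0096). Stc2, Gpt2 and Jdp2 rose by 0.71, 0.54 and 0.53. Stc2 read 5.71, 5.74 and 4.74 in Tc17 WT, its call was kept in 14 of 23 alternatives, and without the technical arrays it differed by 0.41 (adjusted p = 0.0501). For Gpt2, which makes alanine from pyruvate, WT cells also had less in Tc17 than in Tc1 (-0.83 ± 0.12, adjusted p = 0.0019). Cth, which makes cysteine, was 0.87 ± 0.17 higher in Tc17 than in Tc1 among WT cells (adjusted p = 0.0066), and Atf5 0.28 higher. The Atf5 call was kept in 9 of 22 alternatives, and without the technical arrays its difference was 0.23 (adjusted p = 0.0575). Xpot, Jdp2 and Gpt2 were among the 4 called lower in Tc17 than in Tc1 in WT.

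Genes of amino acid sensing by mTORC1 held the largest difference of the 11 lists between the genotypes in Tc17, that of Castor1, with 2 of 20 called higher and 3 lower. Castor1, the arginine sensor that restrains mTORC1, read 7.80, 7.53 and 7.58 in Tc17 WT and 6.44, 6.57 and 6.39 in Tc17 STAT3-/-. Its Tc1 arrays lay between 5.85 and 6.36, below both. Castor1 fell by 1.22 ± 0.11 (adjusted p = 1.65e-04) in STAT3-/- Tc17 cells, and the genotype effect differed from that in Tc1 by -1.0 (adjusted p = 0.0086). Its paralog Castor2 fell by 0.58 ± 0.10 (adjusted p = 0.0042), with Tc17 WT arrays of 6.92, 6.84 and 6.86 above all others. Its genotype effect differed from that in Tc1 by -0.60 (adjusted p = 0.0425), a call lost when any 1 sample other than Tc17 WT replicate 1 was left out. Eif4ebp1, which blocks cap-dependent translation, fell by 0.33. Sesn1, the relative of Sesn2, rose by 0.55, and Depdc5, a subunit of the mTORC1 inhibitor GATOR1, by 0.38. Without the technical arrays Depdc5 differed by 0.28 (adjusted p = 0.0566).

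Between Tc17 and Tc1 in WT the same list had 4 of 20 called higher and 2 lower. Rragd, a Rag GTPase that recruits mTORC1 to lysosomes, was 1.55 ± 0.26 higher in Tc17 (adjusted p = 0.0033). It read 6.69, 6.41 and 6.23 in Tc17 WT against 5.16, 5.39 and 4.11 in Tc1 WT. Among STAT3-/- cells Rragd was likewise higher in Tc17, by 1.89 ± 0.26 (adjusted p = 0.0054). Castor1 was 1.47 ± 0.11 higher in Tc17 among WT cells (adjusted p = 4.95e-05). Sesn3 was 0.58 higher, and Depdc5 and Rheb were lower. The transporters Slc38a2, Slc3a2 and Slc7a6 were 3 of 4 of their list called lower in Tc17.

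**Figure D5:**
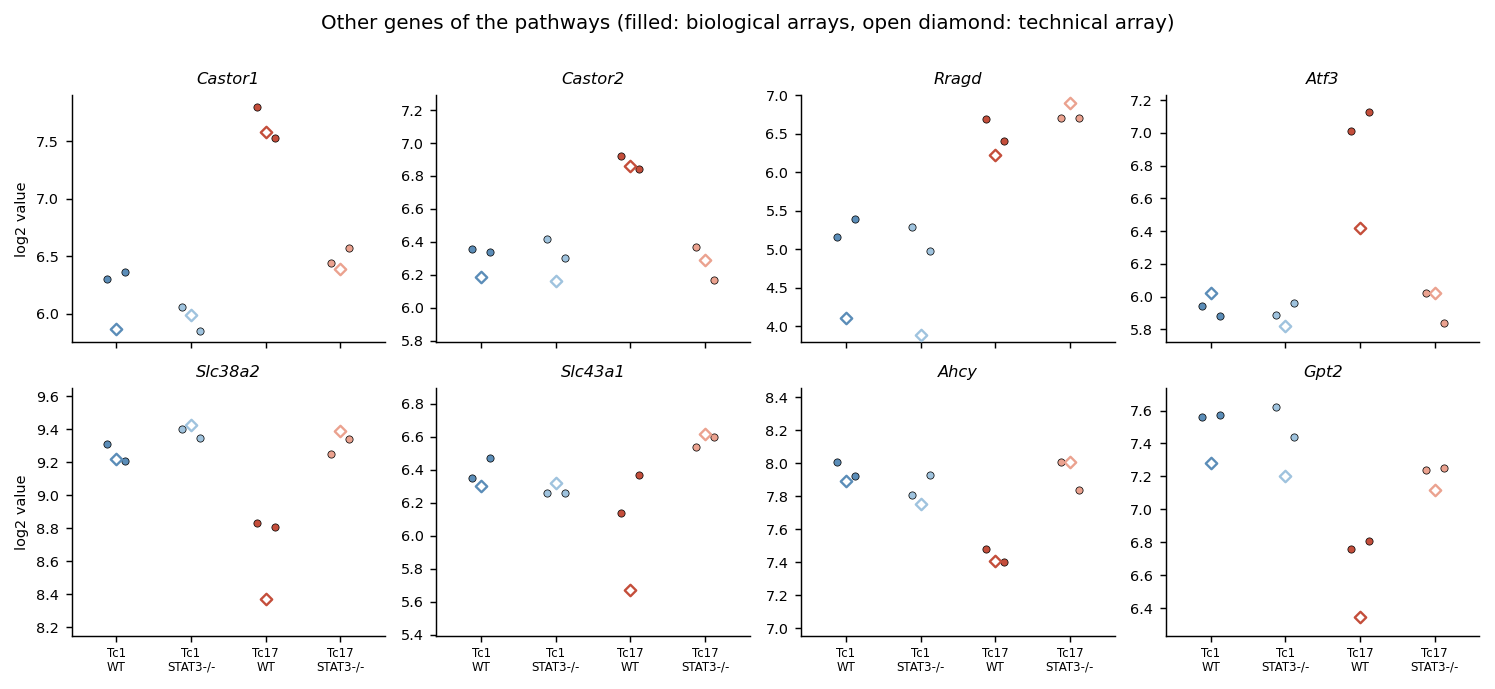
Log2 values (vertical axis) of 8 genes outside the set in the 4 groups (horizontal axis); filled points are biological arrays and open diamonds the technical array. Castor1, Castor2 and Atf3 are highest on the 3 Tc17 WT arrays, Slc38a2 and Gpt2 are lowest there, and Rragd is higher in both Tc17 groups than in both Tc1 groups.

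The unfolded protein response of the endoplasmic reticulum, a neighbouring stress pathway that shares Atf4 and Ddit3, had 0 of 19 called higher and 1 lower between the genotypes in Tc17. That gene was Atf6 (-0.63 ± 0.14, adjusted p = 0.0119), one of the pathway's sensors. Between Tc17 and Tc1 in WT, Syvn1 (0.43) was the 1 called. Of 19 MYC and nucleolar targets, Dkc1 rose by 0.34 and Rrp12 fell by 0.34 between the genotypes in Tc17. These calls (adjusted p = 0.0292 and 0.0309) were kept in 14 and 12 of 23 alternatives. Rrs1 was lower in Tc17 than in Tc1 in WT (-0.49, adjusted p = 0.0463), a call kept in 9 of 23 alternatives. Without the technical arrays Rrs1 differed there by -0.32 (adjusted p = 0.2004). Of the 27 calls named from the 11 lists between the genotypes in Tc17, those of Castor1, Atf3 and Fars2 stood under all 23 alternatives.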

How the data were processed

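The authors made the deposited values, which are log2 signals per probe set, with RMA and Partek, per the submitters' processing notes (versions and settings: not given in the sources used here). RMA compresses differences near background. The array annotation named 23521 of 41345 probe sets with 1 symbol, and 1814 had several and 16010 none. The probe set with the highest mean stood for a gene. Genes with a group mean of at least 5 were tested, 9862 of 22180. Each technical array was averaged with biological replicate 2, an assumption with alternatives. Means of 8 samples in 4 groups were fitted together with limma 3.58.1 in R 4.3.3 (4 residual degrees of freedom) and p-values adjusted by Benjamini-Hochberg over all tested genes. The script was tested on simulated data. The number of samples, 2 per group, limits the precision, and an exact permutation test of 2 against 2 cannot go below 0.333. All measured members were named, and from each other list up to 3 called genes per direction and comparison with the largest difference. The members and lists were chosen with earlier results of these data known. Same-numbered samples deviated together with correlations of 0.098 to 0.455 over pairs of groups and were not treated as pairs. Promoter letters came from RefSeq (GRCm38.p6).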

Additional observations from a re-analysis of the deposited data

Results flagged for a closer look

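The genotype effect on Sesn2 was larger in Tc17 than in Tc1 cells, by 0.58 on the log2 scale (limma, adjusted p = 0.0487). The effect was 0.53 in Tc17 and -0.05 in Tc1. All 3 STAT3-/- Tc17 arrays lay above the 3 WT Tc17 arrays, and in Tc1 the arrays of the 2 genotypes overlapped. The call was lost in 11 of 23 alternatives, among them 7 of the 8 that left out 1 sample, with adjusted p values from 0.0287 to 0.192 over all 23.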

How the results depend on the processing

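The 23 alternatives turned no called member to the opposite sign. Between the genotypes in Tc17, 3 members in place of 5 were called higher with no filter on dim genes, after subtracting the median of tested genes, under quantile normalization, under cyclic loess and with only the groups compared. Leaving out 1 sample gave 0 to 10, with 10 without Tc17 WT replicate 1 and 0 without Tc17 STAT3-/- replicate 2. With the technical arrays left out 1 was called lower. For the difference between the genotype effects, 2 in place of 1 were called higher with the technical arrays left out, 3 with them averaged with replicate 1, and 0 with no filter, after subtracting the tested median, under quantile normalization and under cyclic loess. Leaving out 1 sample gave 0 to 8. Between Tc17 and Tc1 in WT, 2 in place of 8 were called lower with no filter, 3 after subtracting the tested median, 2 under cyclic loess and 2 with only the groups compared. Leaving out 1 sample gave 2 to 15, with 15 without Tc17 WT replicate 1 and 2 without Tc1 WT replicate 2. In STAT3-/- cells, 0 in place of 1 were called higher with no filter and after subtracting the median of all probe sets, 0 to 1 when 1 sample was left out, and 1 was called lower with the technical arrays left out. The replicate block called 2 members for the difference between the genotype effects in place of 1, the added one being Phgdh (adjusted p = 0.0334), and moved no other count of members by over 1.5 times. Over all tested genes, higher and lower calls between the genotypes in Tc17 were 1799 and 674, but 1080 and 1125 after subtracting the tested median and 1139 and 938 under cyclic loess. The cause of these changes was not tested.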
